A study of Mus musculus with 48 samples.

Results

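The genes of 3 families of lipid droplet proteins were followed across 48 RNA sequencing libraries: the CIDE genes Cidea, Cideb and Cidec, the perilipin genes Plin1 to Plin5, and the FITM genes Fitm1 and Fitm2. They were taken by their mouse symbols, and each of the 10 matched 1 of the 56748 Ensembl identifiers in the count files. Messenger RNA had been counted per gene in 3 tissues of male littermates: the liver, brown fat (brown adipose tissue, BAT) and the white fat of the epididymal depot (eWAT). The hepAGT-/- mice (KO) carried a hepatocyte deletion of angiotensinogen (Agt), from which the angiotensin peptides are cut, and the hepAGT+/+ mice (WT) did not. Mice of both genotypes lived either at 20 to 22 °C (room temperature, RT) or at 30 °C (thermoneutrality, TN), a warmth at which little extra heat has to be made. Each of the 12 groups of tissue, genotype and housing had 4 libraries, and what they shared was sex and 12 weeks on a Western diet with 21% milk fat and 0.2% cholesterol. No group ate another diet, so the values below are those of fat-fed mice throughout. The labels name the deletion by its cell type, and the driver of the deletion, the number of founder lines and the animals' age are not given in the sources used here.

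A lipid droplet is a core of triglyceride and sterol ester under a single layer of phospholipid, and it buds from the endoplasmic reticulum. FITM proteins sit in the membrane of the endoplasmic reticulum and promote the budding of droplets toward the cytosol. CIDE proteins collect where droplets touch and pass neutral lipid from the smaller to the larger droplet. Cidea is known from brown fat, Cidec (also called Fsp27) from the large single droplet of white adipocytes and from fatty liver, and Cideb from hepatocytes, where it takes part in loading lipid onto lipoproteins. Perilipins coat the droplet and set how far lipases reach the core. Plin1 is the hormone-regulated coat of adipocytes, Plin2 the common coat of droplets in most other cells, Plin3 a broadly expressed coat that moves on from the cytosol, Plin4 a coat of newly formed droplets in adipocytes, and Plin5 the coat of oxidative tissues that brings droplets near mitochondria.

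Levels are in CPM, which are counts per megacount of the library after TMM scaling (edgeR's correction for library makeup) within a tissue, and the 4 values of a group are listed from low to high. Changes are log2 fold changes of KO over WT or of TN over RT from edgeR. A change was called when the p of edgeR's quasi-likelihood test, adjusted with the Benjamini-Hochberg method across every gene of that comparison (adjusted p), was under 0.05. The labels call the replicates biological without further detail, so these p-values measure the spread between these samples. The 4 comparisons of a tissue share groups with each other, so their changes are given side by side and are not independent of one another. Counting was per gene, and a setting for strand is not given in the sources used here. Cidea, Cideb, Plin4, Fitm1 and Fitm2 overlap a gene on the opposite strand in the GENCODE M21 annotation of GRCm38, and reads of the partner cannot be told apart from theirs here.

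Library totals ran from 23.7 to 43.7 megacounts. Agt in liver was between 125 and 207 CPM in the 8 KO libraries and between 276 and 504 CPM in the 8 WT libraries, with an edgeR log2 change of -1.14 at RT (adjusted p 0.0096) and of -1.29 at TN (adjusted p 0.00113). The tissues carried their defining markers: 7 hepatocyte genes summed to 57020 CPM or more in every liver library, and 6 adipocyte genes to 21290 CPM or more in every eWAT library. Some libraries also held RNA of other tissues. Skeletal muscle markers summed to between 1.34 and 7357 CPM in BAT. Hepatocyte markers summed to between 6.71 and 2672 CPM in BAT and between 29.7 and 4825 CPM in eWAT. Epididymis markers reached 1105 CPM in eWAT of WT RT replicate 18. In eWAT of WT TN replicate 8, Agt was at 8.98 CPM against 58.9 to 134 CPM in the other 3 libraries of its group.

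The sequences before the transcription starts were read for the members that the housing and genotype results turn on and whose window holds no exon of the gene itself. RefSeq's table of starts on GRCm38.p6 held 11 windows for 9 of the 10 members. Cidec is shown because it has 2 annotated starts, 996 bases apart, which a count per gene cannot separate, Plin3 because it was called in BAT, and Fitm2 because it was called in liver. Each window is the 250 bases before a start on the minus strand, written 5′ to 3′ in the direction of transcription. The Plin3 window and that of the second Cidec start lie inside the gene as GENCODE M21 annotates it. On the minus strand these genes begin farther upstream, at chr17:56292873 and chr6:113435760. Capitals mark a match to 1 of 4 motifs searched on both strands, and only Plin3 has one among these 4 windows.
Cidec, first start, chr6:113435761-113436010: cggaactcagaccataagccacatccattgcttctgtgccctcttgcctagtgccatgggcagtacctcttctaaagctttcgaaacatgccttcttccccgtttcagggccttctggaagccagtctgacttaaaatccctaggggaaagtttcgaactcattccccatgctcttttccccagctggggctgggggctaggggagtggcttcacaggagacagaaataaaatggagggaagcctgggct
Cidec, second start, chr6:113434765-113435014: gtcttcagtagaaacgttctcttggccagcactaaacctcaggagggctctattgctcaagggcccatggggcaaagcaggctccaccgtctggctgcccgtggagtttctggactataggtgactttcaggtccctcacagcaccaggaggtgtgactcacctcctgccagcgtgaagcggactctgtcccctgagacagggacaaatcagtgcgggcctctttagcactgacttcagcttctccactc
Plin3, chr17:56290512-56290761: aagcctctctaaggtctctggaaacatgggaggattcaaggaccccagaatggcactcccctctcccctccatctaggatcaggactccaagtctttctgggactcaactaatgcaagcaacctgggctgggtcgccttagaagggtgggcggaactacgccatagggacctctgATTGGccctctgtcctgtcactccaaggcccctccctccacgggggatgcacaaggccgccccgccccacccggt
Fitm2, chr2:163472630-163472879: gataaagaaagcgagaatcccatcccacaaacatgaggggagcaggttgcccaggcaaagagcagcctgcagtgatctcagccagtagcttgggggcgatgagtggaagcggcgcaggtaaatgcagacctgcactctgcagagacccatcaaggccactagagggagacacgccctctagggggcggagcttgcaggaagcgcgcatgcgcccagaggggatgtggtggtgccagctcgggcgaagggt
The motifs were the CCAAT box (CCAAT), the TATA box (TATAAA), a sterol response element (TCACNCCAC) and the direct repeat that nuclear receptors such as the PPAR family bind, a pair of AGGTCA elements spaced by 1 base of any kind. A CCAAT match lies in 33.8% of the 32851 windows in the table, a TATAAA match in 12.4%, a TCACNCCAC match in 1.05% and a direct repeat match in 0.0335%. The match of Plin3 is a CCAAT on the opposite strand, read as ATTGG 75 to 71 bases before the start. Plin2, Plin4 and Plin5 also have CCAAT matches and Cideb has a TATAAA match, in windows that overlap their own exons. The windows of Cidec, Plin1, Fitm1 and Fitm2 held none of these letters, and the sterol and direct repeat motifs were found in no member's window. The Fitm2 window overlaps an exon of the antisense gene 2310001K24Rik. A match is a string of letters and does not show that a factor binds there.

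Each tissue had its own order of droplet genes when levels were divided by exon length (CPM per kilobase, with TMM scaling over all 48 libraries and exon lengths of GENCODE M21). In BAT, Cidea stood first, with a median of 1544 CPM per kilobase over 16 libraries (range 779 to 3031). Cidec (375), Plin2 (341), Plin1 (278), Plin4 (124), Plin5 (122), Fitm2 (50.1) and Plin3 (22.5) followed in CPM per kilobase. Neighbours in that order overlapped in their ranges, while Cideb (7.12) lay wholly below Plin3 and overlapped Fitm1 (0.695). The ranges span both housing temperatures and genotypes, so they are wider than the error of a group.

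In eWAT, Cidec stood first at a median of 1570 CPM per kilobase (883 to 1879), wholly above Plin4 at 608. Plin4 overlapped Plin1 (356), and below them Plin2 (131), Fitm2 (47.0), and Plin3 (15.8) each formed a step of their own in CPM per kilobase without overlap. Plin5 (4.93), Cidea (1.38), Cideb (1.05) and Fitm1 (0.589) overlapped at the foot. In liver, Cideb (198 CPM per kilobase, 152 to 247) and Plin2 (182, 114 to 313) overlapped at the top and lay wholly above Fitm1 (47.6, 29.5 to 78.0). Fitm2 (21.3), Plin5 (17.3), Cidec (17.2), Plin3 (11.3), Plin4 (5.03) and Cidea (4.84) overlapped their neighbours in CPM per kilobase. Plin1 had no count in 13 of the 16 liver libraries.

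**Figure D1:**
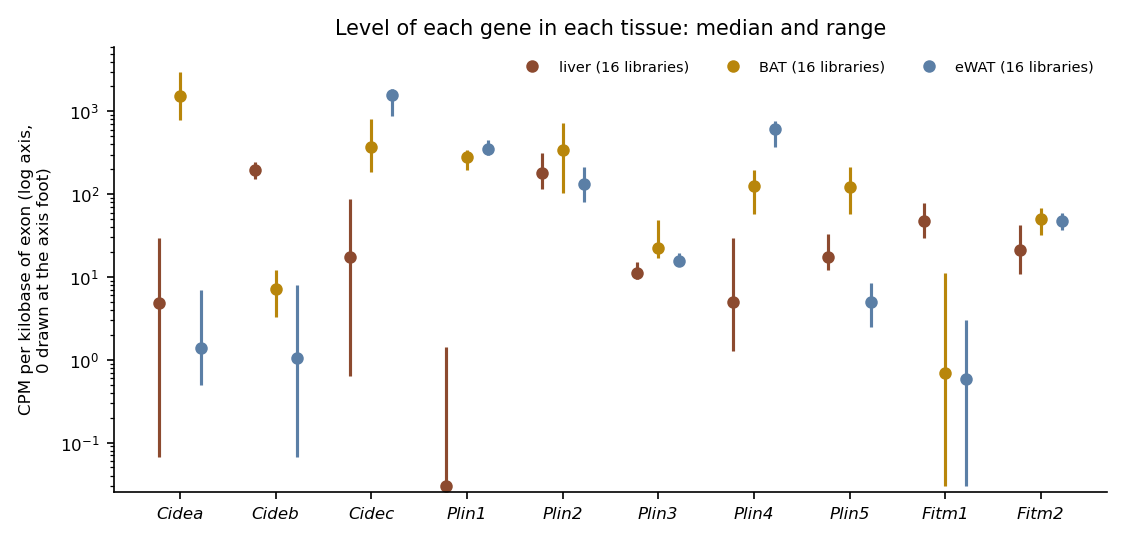
Median (point) and range (line) of the level of each of the 10 genes over the 16 libraries of liver, BAT and eWAT, in CPM per kilobase of exon on a log axis, with values of 0 drawn at the foot. Cidea leads in BAT, Cidec in eWAT, and Cideb and Plin2 in liver, where Plin1 is at a median of 0.

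Between tissues, BAT and eWAT differed in 8 of the 10 members (6 higher and 2 lower in BAT), against 60.3% of all genes called (29.2% higher, 31.1% lower). Liver and eWAT differed in 10 of 10 (73.8% of all genes), and liver and BAT in 10 of 10 (68.6%), so calls between tissues were common. Each tissue difference here and below compares averages over genotype and housing. Between the fats Cidea was farthest apart, at an edgeR log2 difference of 9.76 between BAT and eWAT (866-fold, adjusted p 1.16e-16). Plin5, the coat of oxidative tissues, was 4.46 log2 units higher in BAT than in eWAT (adjusted p 4.36e-28). Averaged over the groups, Plin2 was higher in BAT by 1.06 (adjusted p 4.05e-09) and Plin3 by 0.58 (adjusted p 5.85e-08). In WT TN mice the mean CPM from plain library totals was lower in BAT for both. It was 699.5 in BAT against 748.9 in eWAT for Plin2, and 75.13 against 81.95 for Plin3. In the other groups the BAT mean was the higher one. The coats and fusion factors of white adipocytes were lower in BAT, Cidec at -1.92 (adjusted p 3.78e-09) and Plin4 at -2.27 (adjusted p 1.34e-14), both as BAT over eWAT. Plin1 (-0.48, adjusted p 0.302) and Fitm2 (0.13, adjusted p 0.246) did not pass the edgeR test between the fat depots. Plin1 is called without liver KO RT replicate 19 in the joint fit (adjusted p 0.0309, range over the alternatives 0.0309 to 0.446). That library held 151 Plin1 counts. Fitm1 was called higher in BAT (1.42, adjusted p 0.031), but not when every gene was kept (1.36, adjusted p 0.0622) or with the replicate block (1.09, adjusted p 0.327). The Fitm1 call also ended without any 1 of 5 BAT libraries, KO RT replicate 14 (adjusted p 0.103), WT RT replicate 15 (0.0945), KO TN replicate 2 (0.162), WT TN replicate 24 (0.0587) or WT TN replicate 6 (0.0515), and its adjusted p ranged from 0.0149 to 0.327 over the alternatives. All of these libraries but WT RT replicate 15 had skeletal muscle markers over 3000 CPM. The part of muscle RNA in the Fitm1 difference was not tested.

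Liver led both fats in Cideb and Fitm1. Cideb was 4.87 log2 units higher in liver than in BAT by edgeR (adjusted p 7.5e-14) and Fitm1 4.49 higher (adjusted p 6.38e-09). Fitm1, which is best known from skeletal muscle, thus had its highest level here in liver, where 8 muscle markers summed to no more than 2.41 CPM. Cidec (-6.39) and Plin4 (-6.45) were the members besides Plin1 that were farthest below eWAT in liver, and Fitm2 was -1.11 relative to eWAT, each a log2 difference past the edgeR threshold. Averaged over the groups, Cidea was higher in liver than in eWAT by 1.66 (edgeR adjusted p 0.00116). Without liver KO RT replicate 19 that log2 difference was 1.06 (adjusted p 0.0239). The genotypes were not alike in this. With plain library totals the mean CPM of Cidea in liver and eWAT was 14.32 and 2.632 in WT RT and 13.45 and 3.413 in WT TN. In KO RT mice liver was the lower, at 1.382 against 3.298. In KO TN mice the means were 3.462 and 1.324, with liver replicate 4 at 11.68. Plin1 was below both fats in liver, with a count in only 3 of 16 libraries, and DESeq2 did not call it against either fat.

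Within the liver, Fitm2 and Plin5 were lower in KO than in WT mice at TN, and most other members had lower means in KO at both temperatures without passing the test. At RT the edgeR test called 0 of 9 members (0.0853% of all genes called, 0.0171% higher and 0.0682% lower), 5 had an unadjusted p under 0.05, and DESeq2 called 3, namely Cidec, Plin2 and Fitm1. The sign was negative in 8 of 9 members, with a median log2 change of -0.70 against 0.0156 over all 17594 genes tested. At TN edgeR called 2 of 9 members, both lower in KO (3.18% of all genes called, 1.85% lower), 7 had an unadjusted p under 0.05, and DESeq2 called 5. Without KO TN replicate 4 the genes called at TN went from 560 to 178. All 9 signs were negative at TN, with a median of -0.81 against 0.0519 over all genes, although Plin3 was at 0 when plain library totals replaced TMM. The KO libraries lay wholly below the WT libraries in 4 of 9 members at RT (2.83% of all genes) and in 2 of 9 at TN (6.22% of all genes). Plin1 had too few counts to be tested in liver. In a tissue measured as a whole, fewer cells of a type and less RNA per cell cannot be told apart.

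Among the CIDE genes of the liver, the RT values of Cidea were 4.76, 6.85, 19.5 and 28.9 CPM in WT and 0.0645, 0.257, 0.453 and 4.73 CPM in KO. The lowest WT library was just above the highest KO library, replicate 19, and the other 3 KO libraries were under 0.5 CPM. At TN Cidea was at 2.21, 8.79, 18.9 and 24.8 CPM in WT and 0.171, 0.496, 1.39 and 11.1 CPM in KO, and KO replicate 4 lay among the WT libraries. The edgeR log2 change of Cidea was -3.48 at RT (SE 1.41, adjusted p 0.404) and -2.06 at TN (adjusted p 0.468), so neither passed the test across all genes. Without KO RT replicate 19 the RT change was -5.84 (adjusted p 0.358, range over the alternatives 0.148 to 0.565), and without KO TN replicate 4 the TN change was -4.34 (adjusted p 0.187, range 0.187 to 0.666).

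Cidec, which like Cidea is known to rise in fatty liver, spread widely in both genotypes. Its RT values were 21.9, 40.6, 52.8 and 87.6 CPM in WT and 1.00, 4.60, 8.91 and 13.1 CPM in KO, without overlap (edgeR log2 change -2.89, SE 0.75, adjusted p 0.194). At TN they were 31.2, 53.1, 126 and 141 CPM in WT and 11.8, 12.9, 23.1 and 37.2 CPM in KO, where the highest KO library passed the lowest WT library (edgeR log2 change -2.05, SE 0.72, adjusted p 0.152). DESeq2 called Cidec at RT (adjusted p 0.0066, range over the alternatives 0.0066 to 0.374) and at TN (0.0431, range 0.0431 to 0.298). Cideb, the hepatocyte member, differed little at RT, at 227, 264, 294 and 297 CPM in WT and 223, 251, 255 and 262 CPM in KO (edgeR log2 change -0.13, SE 0.13, adjusted p 0.812). At TN it was at 220.4, 265, 306 and 311 CPM in WT and 195, 206, 210 and 240.4 CPM in KO (edgeR log2 change -0.37, SE 0.13, adjusted p 0.116). WT TN replicate 24 was the only WT library within the KO range of Cideb, and without it the change was called (adjusted p 0.043, range over the alternatives 0.043 to 0.283).

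Plin5 was the perilipin called in liver at TN. It was at 38.5, 50.5, 57.6 and 59.1 CPM in WT and at 22.3, 24.96, 31.1 and 39.1 CPM in KO (edgeR log2 change -0.81, SE 0.18, adjusted p 0.0174). The groups touched at 1 point, where KO replicate 22 exceeded WT replicate 24. The call was lost without KO TN replicate 4 (adjusted p 0.0725), WT TN replicate 1 (0.0528) or WT TN replicate 7 (0.054), and the adjusted p ran from 0.00268 to 0.0725 over the alternatives. At RT Plin5 was at 22.2, 32.2, 32.9 and 38.5 CPM in WT and 23.5, 25.9, 26.1 and 26.1 CPM in KO, with overlap (edgeR log2 change -0.31, SE 0.18, adjusted p 0.586). The genotype change at TN minus that at RT was -0.50 on the log2 scale and was not called (edgeR adjusted p 0.691).

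Plin4, whose known site is the adipocyte droplet, differed more at TN than Plin5 did but with a wider spread. Its TN values were 59.6, 61.7, 126 and 143 CPM in WT and 10.8, 14.4, 31.8 and 45.5 CPM in KO, without overlap (edgeR log2 change -1.93, SE 0.56, adjusted p 0.0851). DESeq2 called it (adjusted p 0.0104, range over the alternatives 0.0104 to 0.198). At RT it was at 15.8, 16.5, 44.5 and 45.0 CPM in WT and 6.39, 17.1, 17.8 and 18.5 CPM in KO, where 1 KO library lay below all WT libraries and 3 lay between the lower and the upper WT pair (edgeR log2 change -1.03, SE 0.56, adjusted p 0.569). Plin2, the main coat of hepatocyte droplets, was at 562, 578, 611 and 877 CPM in WT and 347, 361, 430.3 and 478 CPM in KO at RT, without overlap. Its edgeR log2 change at RT was -0.70 (SE 0.17, adjusted p 0.124, range over the alternatives 0.00879 to 0.297). At TN it was at 550.2, 682, 866 and 946 CPM in WT and 494, 524, 549.7 and 556 CPM in KO, where only WT replicate 24 lay within the KO range (edgeR log2 change -0.52, SE 0.17, adjusted p 0.0878). The Plin2 change at TN was called without that library (adjusted p 0.028) and by DESeq2 (adjusted p 0.0443, range over the alternatives 0.028 to 0.262). Plin3 stayed between 30.6 and 50.01 CPM in all 16 liver libraries, with log2 changes of 0.02 at RT and -0.08 at TN.

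Of the FITM genes, Fitm2 was called in liver at TN. Fitm2 was at 79.5, 122, 135 and 145 CPM in WT and 46.8, 52.1, 60.8 and 72.8 CPM in KO at TN, without overlap (edgeR log2 change -1.05, SE 0.22, adjusted p 0.0138). The call held in all 21 alternatives run, leaving out any library included, with an adjusted p of 0.000338 to 0.047. At RT Fitm2 was at 56.5, 78.5, 88.2 and 98.4 CPM in WT and 36.7, 50.9, 53.1 and 71.8 CPM in KO, with overlap (edgeR log2 change -0.60, SE 0.21, adjusted p 0.313), and the interaction was not called (-0.45, adjusted p 0.807).

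Fitm1 separated the genotypes at RT, at 51.7, 53.5, 58.3 and 64.8 CPM in WT and 25.5, 25.9, 31.2 and 35.7 CPM in KO (edgeR log2 change -0.95, SE 0.24, adjusted p 0.136). DESeq2 called it there (adjusted p 0.0115), as did edgeR on only the 8 libraries compared (0.0333) and without WT TN replicate 24 (0.0177), over a range of 0.0115 to 0.293. At TN Fitm1 was at 24.7, 51.1, 59.9 and 62.9 CPM in WT and 25.2, 25.3, 27.9 and 44.3 CPM in KO (edgeR log2 change -0.69, SE 0.23, adjusted p 0.116). WT replicate 24 was at the KO level and KO replicate 4 stood toward the WT level. Leaving out replicate 24 gave an adjusted p of 0.007 and leaving out replicate 4 gave 0.0496, over a range of 0.007 to 0.274. WT TN replicate 24 was the lowest library of its group in Cidea, Cideb, Cidec, Plin2, Plin5, Fitm1 and Fitm2, and without it edgeR called 5 members at TN.

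**Figure D2:**
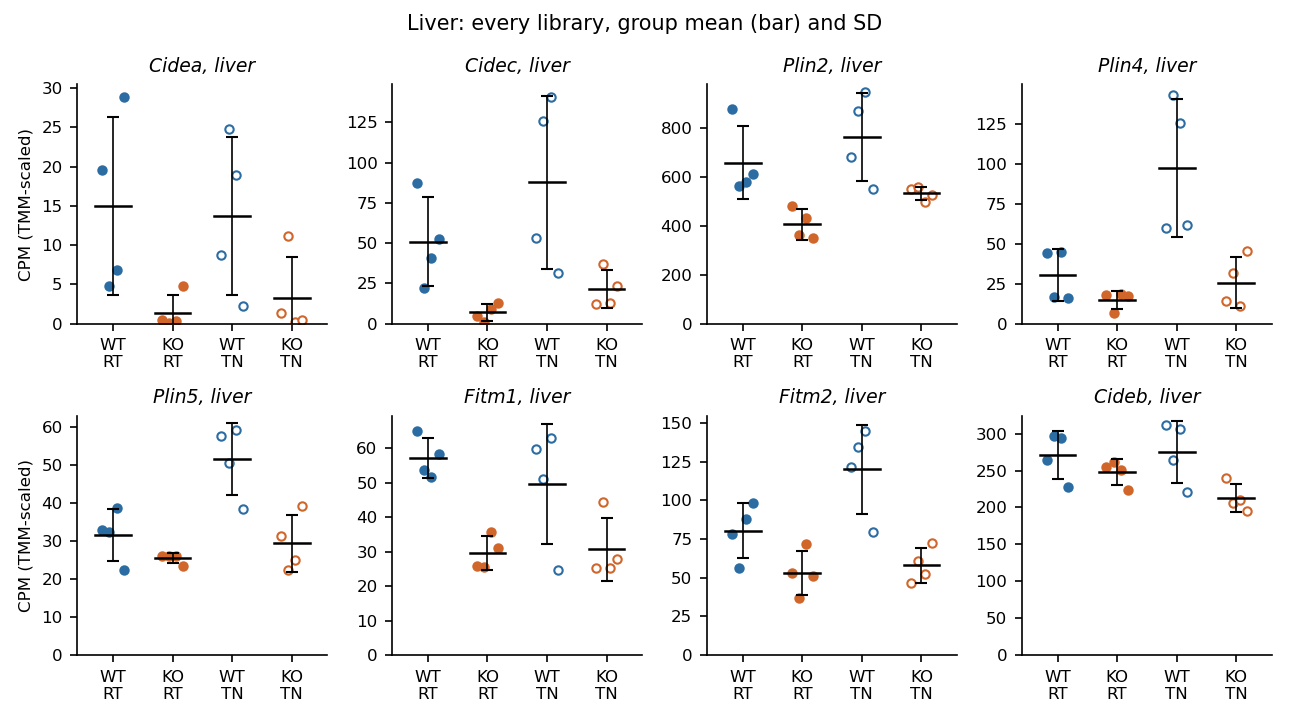
CPM of 8 members in the 16 liver libraries. Points are libraries (blue WT, orange KO, filled RT, open TN), bars are means and whiskers the SD of 4 libraries, cut at 0 where they would pass below the axis, and the 4 KO libraries of Fitm2 at TN lie below all 4 WT libraries.

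Sums of genes listed as markers of other cell types differed between some of these liver groups. Mature adipocyte markers summed to between 82.3 and 144 CPM in WT RT, 25.7 and 148 CPM in KO RT, 113 and 218 CPM in WT TN, and 59.1 and 213 CPM in KO TN livers. Of the 6 markers in that list, Adipoq and Lep were at 0 in all WT libraries, and the highest KO RT sum was that of replicate 19, the library with 5.81 CPM of Plin1 against 0 in the other 3 of its group. Macrophage markers summed to between 107 and 127 CPM in WT TN and between 133 and 341 CPM in KO TN livers. The 6 genes listed as brown adipocyte markers summed to between 85.2 and 98.9 CPM in WT TN and between 45.5 and 65.6 CPM in KO TN livers, without overlap. Ucp1 was at 0 in both groups and Dio2 in WT TN, so in liver this sum does not measure brown adipocytes. At RT the sums of these genes overlapped, at 75.1 to 125 CPM in WT and 49.5 to 219 CPM in KO. B cell markers summed to between 2.92 and 3.29 CPM in WT RT and between 3.42 and 6.66 CPM in KO RT livers, without overlap. At TN the B cell sums were 2.598 to 5.61 CPM in WT and 5.58 to 9.84 CPM in KO. The part of any other cell type in the member values was not tested.

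Housing alone called no member in liver. Between TN and RT edgeR called 0 of 9 members in WT (0.0227% of all genes called; 3 with an unadjusted p under 0.05, 0 by DESeq2) and 0 of 9 in KO (0.114%; 2 and 0). The libraries did not overlap in Plin4 of WT mice, where all 4 TN libraries, from 59.7 CPM upward, were above the highest RT library at 45.0 CPM (2.21% of all genes lay higher without overlap). Its edgeR log2 change was 1.68 (adjusted p 0.454). Plin2 of KO mice, from 494 CPM upward at TN, was likewise above its RT libraries, of which the highest was at 479 CPM (edgeR log2 change 0.39, SE 0.17, adjusted p 0.391; 4.35% of all genes lay higher). The interaction of genotype and housing called 0 of 9 members (0% of all genes called), none had an unadjusted p under 0.05, and DESeq2 called 0.

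In BAT of WT mice, Cidea, Cidec, Plin2, Plin3 and Plin5 fell from RT to TN and Plin4 rose. These 6 of 10 calls stand beside 32.5% of all genes called (15.9% higher, 16.7% lower). In KO mice Cidea and Plin2 fell and Plin4 rose, 3 of 10 members beside 15.2% of all genes (6.64% higher, 8.52% lower). DESeq2 called the same numbers, 6 and 3. The median log2 change of the members was -0.70 in WT and -0.12 in KO, against 0.112 and 0.0403 over all 18032 genes. Scaling matters in this comparison: with plain library totals in place of TMM every gene shifted upward, by 0.546 in WT and 0.384 in KO. The called members kept their direction on that scale, while the uncalled Cideb, Plin1 and Fitm2 in WT and Cidec, Plin1, Plin3 and Plin5 in KO changed sign.

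Cidea, the leading CIDE gene of BAT, was at 1740, 2669, 3024 and 3175 CPM in WT RT and 843, 879, 1151 and 1250 CPM in WT TN libraries. No TN library reached the lowest RT library (edgeR log2 change -1.36, SE 0.22, adjusted p 0.000182). In KO mice Cidea went from 1972, 2010, 2158 and 2359 CPM at RT to 809, 1217, 1450 and 1458 CPM at TN, again without overlap (edgeR log2 change -0.78, SE 0.22, adjusted p 0.0193). The KO call was lost without KO TN replicate 2 (adjusted p 0.0589), without KO TN replicate 4 (0.0671), and without the 4 BAT libraries with muscle markers over 3000 CPM, an alternative chosen after seeing the data (log2 change -0.62, adjusted p 0.0902), over a range of 0.00258 to 0.0902. With plain totals the change of Cidea was -0.81 in WT and -0.40 in KO.

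Cidec was at 688, 1070, 1404 and 1424 CPM in WT RT and 323, 422, 540 and 639.5 CPM in WT TN libraries, without overlap (edgeR log2 change -1.25, SE 0.26, adjusted p 0.00121). In KO it was at 549, 666, 698 and 921 CPM at RT and 464, 476, 564 and 762 CPM at TN (edgeR log2 change -0.32, SE 0.25, adjusted p 0.462), where the groups overlapped. The difference between the genotypes in this housing effect was 0.93 and was not called (edgeR adjusted p 0.47). Cideb, a minor gene of BAT, was between 4.67 and 16.6 CPM, with housing changes of -0.41 in WT and 0.74 in KO that were not called (adjusted p 0.274 and 0.0815). Without KO TN replicate 4 the KO change was called (0.97, adjusted p 0.0278, range over the alternatives 0.0278 to 0.272). Hepatocyte markers in the KO TN libraries summed to 2672 CPM in replicate 2 and 1460 CPM in replicate 5, where Cideb was at 12.8 and 16.6 CPM. In replicates 3 and 4 they summed to 23.1 and 154 CPM, with Cideb at 10.2 and 6.58 CPM. The part of hepatocyte RNA in the Cideb values of BAT was not tested.

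Plin2 had the largest fall among the perilipins. It was at 1102, 1650, 1932 and 2361 CPM in WT RT and 339, 356, 484 and 1297 CPM in WT TN libraries, where only TN replicate 24 overlapped the RT range (edgeR log2 change -1.51, SE 0.36, adjusted p 0.00488). Without replicate 24 the change was -2.17 (adjusted p 7.72e-06, range over the alternatives 7.72e-06 to 0.0305). That library also held the highest sum of brown adipocyte markers in its group, 6341 CPM against a group median of 2926 CPM, and 1 of the 2 highest sums of muscle markers. In KO mice Plin2 went from 1152, 1172, 1274 and 1608 CPM at RT to 346, 473, 490 and 586 CPM at TN, without overlap (edgeR log2 change -1.46, SE 0.36, adjusted p 0.0122). The calls in both genotypes held in every alternative run.

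Plin5 was at 238, 342, 395 and 416 CPM in WT RT and 114, 128, 162 and 265 CPM in WT TN libraries, and again TN replicate 24 was the library that overlapped (edgeR log2 change -1.06, SE 0.26, adjusted p 0.00424). Plin3 was at 87.0, 115, 133 and 171 CPM in WT RT and within the narrow span of 61.6, 62.0, 62.5 and 68.3 CPM in WT TN libraries, without overlap (edgeR log2 change -0.99, SE 0.21, adjusted p 0.00134). With plain totals the WT changes were -0.52 for Plin5 and -0.42 for Plin3. In KO mice neither was called (Plin5 -0.31, adjusted p 0.485; Plin3 -0.23, adjusted p 0.518), and the interactions were not called either (adjusted p 0.493 and 0.47).

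Plin4 was the member that rose. It was at 435, 512, 548 and 566 CPM in WT RT and 905, 966, 1042 and 1055 CPM in WT TN libraries (edgeR log2 change 0.94, SE 0.16, adjusted p 0.000316). In KO mice it rose from 318, 346, 363 and 511 CPM at RT to 774, 876, 916 and 997 CPM at TN (edgeR log2 change 1.21, SE 0.16, adjusted p 9.82e-05). All TN libraries lay above all RT libraries in both genotypes, and the call held in every alternative run, with plain-total changes of 1.49 and 1.58. Plin1 was not called, at 1200, 1242, 1286 and 1402 CPM in WT RT and 891, 896, 967 and 1246 CPM in WT TN libraries (edgeR log2 change -0.36, SE 0.18, adjusted p 0.134). Without WT TN replicate 24 edgeR called 7 members in WT, Plin1 being the added one (-0.48, adjusted p 0.0442, range over the alternatives 0.0442 to 0.343).

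The FITM genes of BAT were not called for housing. Fitm2 was between 143 and 243 CPM at RT and between 120 and 252 CPM at TN, with changes of -0.18 in WT and 0.01 in KO (edgeR adjusted p 0.522 and 0.989). Fitm1 ran from 0 to 10.2 CPM, and its highest value in each group but WT RT was in a library with muscle markers over 3000 CPM. The genes most like Fitm1 across the 16 BAT libraries were Ckmt2 (Pearson r 0.968 on the log scale), Ankrd2 (0.958) and Actn3 (0.956), all genes of striated muscle.

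**Figure D3:**
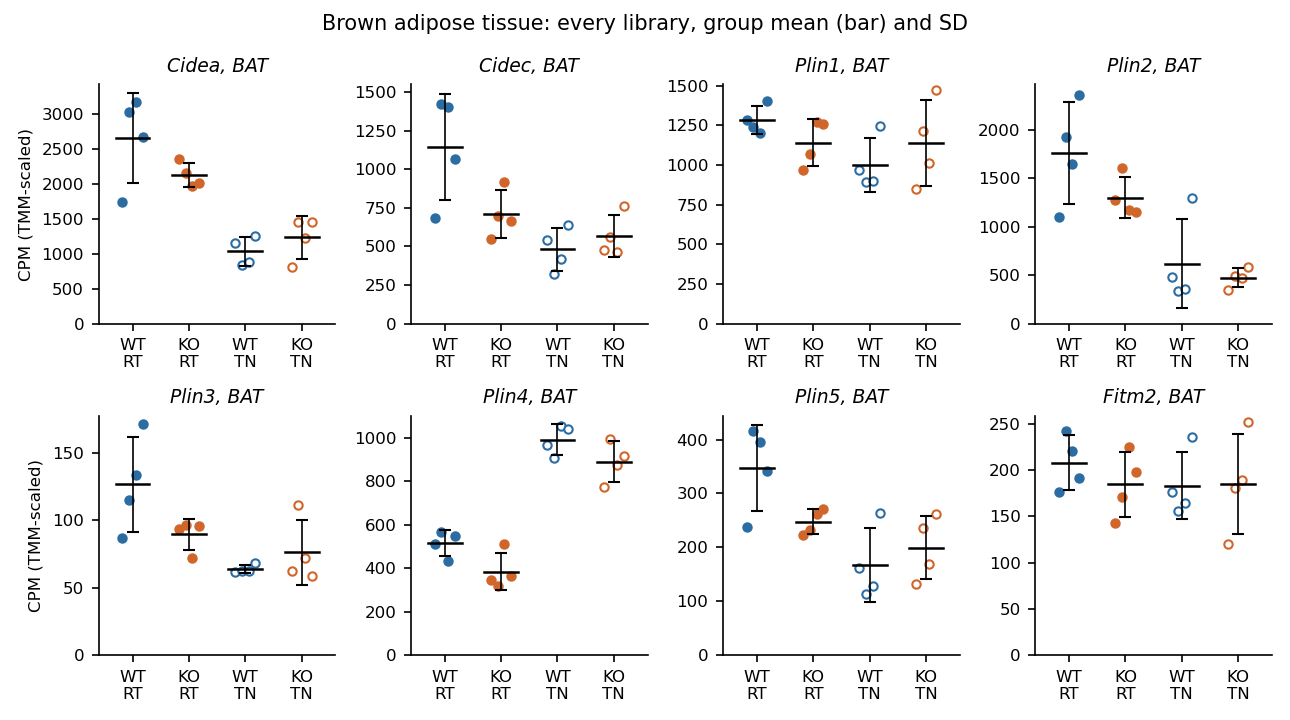
CPM of 8 members in the 16 BAT libraries. Points are libraries (blue WT, orange KO, filled RT, open TN), bars are means and whiskers the SD of 4 libraries, and Plin4 is higher in all TN libraries than in any RT library of the same genotype, while Cidea is lower.

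Markers of other cells, and of the brown state itself, differed with housing beside these members. Brown adipocyte markers, Ucp1 among them, summed to between 6456 and 11570 CPM in the 8 RT libraries and between 2642 and 6341 CPM in the 8 TN libraries, so they did not overlap. Macrophage markers summed to between 34.7 and 90.7 CPM at RT and between 144 and 408 CPM at TN. Mature adipocyte markers overlapped, at 9471 to 12120 CPM at RT and 7976 to 13380 CPM at TN. Without the 4 libraries with muscle markers over 3000 CPM the 6 WT calls and the KO calls of Plin2 and Plin4 held. The part of the other markers in the member values was not tested.

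No BAT member was called for genotype. At RT edgeR called 0 of 10 members (0.0887% of all genes called, 0.0555% higher and 0.0333% lower), 4 had an unadjusted p under 0.05, DESeq2 called 0, and 9 of 10 signs were negative, with a median log2 change of -0.43. Under plain totals every gene shifted upward by 0.158 and Fitm2 changed sign. Cideb was the member without overlap, at 9.49, 10.7, 11.3 and 13.4 CPM in WT and 4.67, 6.61, 7.77 and 8.49 CPM in KO (edgeR log2 change -0.70, SE 0.28, adjusted p 0.187), beside 3.98% of all genes lying lower without overlap. Cidec at RT, with the values above, had a log2 difference of -0.69 (adjusted p 0.16), and WT replicate 12 was the WT library that overlapped KO. Without it edgeR called Cidec (-0.87, adjusted p 0.0256, range over the alternatives 0.0256 to 0.372) and Plin3 (-0.65, adjusted p 0.0431, range 0.0431 to 0.492), among 1979 genes called in all. At TN edgeR called 0 of 10 members (0% of all genes), none had an unadjusted p under 0.05, and DESeq2 called 0. The interaction called 0 of 10 members in BAT (0% of all genes), 3 had an unadjusted p under 0.05, and DESeq2 called 0.

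In eWAT, KO mice at TN had less Plin2 mRNA than WT mice, the 1 call of 10 members there (0.586% of all genes called, 0.412% lower; DESeq2 also called 1). That share rests on 111 genes, which became 1 without KO TN replicate 5 and 238 without WT TN replicate 8. Plin2 was at 685, 746, 762 and 814 CPM in WT and 351, 362, 428 and 472 CPM in KO, without overlap (edgeR log2 change -0.90, SE 0.16, adjusted p 0.0397). The log2 change stayed between -0.98 and -0.83 in all alternatives, but the call was lost in 9 of the 16 fits that left out a library and in the fit to only the 8 libraries compared (adjusted p 0.0646), with a largest adjusted p of 0.159. The calls were lost without KO RT replicates 9 or 19, WT RT replicates 13 or 15, KO TN replicates 3, 5 or 21, and WT TN replicates 6 or 7. The call held without the 5 eWAT libraries with hepatocyte markers over 1500 CPM, an alternative chosen after seeing the data. Those libraries were KO RT replicates 16 and 19, WT RT replicates 13 and 18, and WT TN replicate 8. From the TN groups compared here, that alternative thus left out only WT TN replicate 8. At RT Plin2 was at 522, 691, 709 and 935 CPM in WT and 394, 530.4, 545 and 597 CPM in KO, with overlap (edgeR log2 change -0.47, SE 0.16, adjusted p 0.108). Over the alternatives that RT change ran from -0.58 to -0.097, with an adjusted p of 0.0524 to 0.881. Plin2 is known to be abundant in macrophages that hold lipid. Macrophage markers in eWAT at TN summed to between 965 and 1739 CPM in WT and between 709 and 871 CPM in KO, and at RT to between 612 and 928 CPM in WT and between 440 and 645 CPM in KO. Their part in the Plin2 values was not tested.

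At RT edgeR called 0 of 10 members in eWAT (4.34% of all genes called, 1.2% higher and 3.13% lower), 4 had an unadjusted p under 0.05, and DESeq2 called 2, Plin4 and Plin5. Without WT RT replicate 18, the library with epididymis markers, edgeR called 287 genes in place of 821, and again 0 members. The log2 change was then -0.48 for Plin4 (adjusted p 0.175), -0.72 for Plin5 (0.196), -0.38 for Cidec (0.392) and -0.28 for Plin2 (0.422). The signs were split, 5 positive and 5 negative, with a median log2 change of -0.19 against -0.00207 over all 18933 genes. In 3 members, Cidec, Plin4 and Plin5, the KO libraries lay wholly below the WT libraries (6.89% of all genes). Plin4 was at 3795, 4378, 4405 and 5370 CPM in WT and 2687, 3211, 3366 and 3383 CPM in KO (edgeR log2 change -0.51, SE 0.15, adjusted p 0.0681). Its adjusted p was 0.011 by DESeq2 and 0.0406 without KO TN replicate 21, which enters through the shared spread, over a range of 0.011 to 0.308.

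Plin5, low in white fat, was at 19.2, 20.3, 21.6 and 21.8 CPM in WT and 9.58, 12.7, 12.7 and 14.8 CPM in KO at RT (edgeR log2 change -0.74, SE 0.24, adjusted p 0.0902). It was called by DESeq2 (adjusted p 0.0475), on only the 8 libraries compared (0.0315) and without WT TN replicate 8 (0.0461), over a range of 0.0315 to 0.447. Cidec was at 3503, 3805, 4168 and 4211 CPM in WT and 2587, 2646, 3252 and 3429 CPM in KO (edgeR log2 change -0.40, SE 0.18, adjusted p 0.242). Over the alternatives the Cidec change ran from -0.44 to -0.19, with an adjusted p of 0.133 to 0.811. At TN none of the 3 was without overlap, with changes of 0.10 for Plin4, -0.29 for Plin5 and -0.22 for Cidec. Plin1, the main adipocyte coat, was at 1826, 1937, 2072 and 2364 CPM in WT and 2127, 2303, 2453 and 2581 CPM in KO at RT (edgeR log2 change 0.21, SE 0.13, adjusted p 0.441).

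Cidea in eWAT showed how far 1 library can carry a group. At TN it was at 1.08, 1.17, 1.77 and 9.57 CPM in WT and 0.683, 1.01, 1.48 and 2.02 CPM in KO (edgeR log2 change -1.39, SE 0.63, adjusted p 0.343). The highest value was that of WT replicate 8, the library with little Agt, and without it the log2 change was -0.04 (adjusted p 0.988, range over the alternatives 0.196 to 0.988). The same library held 21.0 CPM of Plin5, against 9.44 to 12.0 CPM in the other 3 WT TN libraries. Cideb (0.126 to 15.2 CPM) and Fitm1 (0 to 3.64 CPM) were low in eWAT and went with hepatocyte genes. The gene most like Cideb across the 16 libraries was Slc38a4 (r 0.977) and that most like Fitm1 was Kng2 (r 0.93), both known from hepatocytes. Fitm2 was between 181 and 294 CPM and Plin3 between 65.8 and 91.3 CPM in all eWAT libraries, with no call in any comparison within the tissue.

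No eWAT member was called for housing. Between TN and RT edgeR called 0 of 10 in WT (0% of all genes called; 1 with an unadjusted p under 0.05, 0 by DESeq2) and 0 of 10 in KO (1.74%, of which 1.02% higher and 0.718% lower; 3, and 1 by DESeq2). The share in KO rests on 330 genes, which became 0 without KO TN replicate 3 and 642 without KO RT replicate 16. In KO mice Plin4 was at the 4 RT values above and at 3385, 4875, 5096 and 5529 CPM at TN, all TN libraries being higher, the lowest by a narrow margin (edgeR log2 change 0.58, SE 0.15, adjusted p 0.0594; 5.67% of all genes lay higher without overlap). It was called by DESeq2 (adjusted p 0.00379), without a filter on low counts (0.0445) and without KO TN replicate 21 (0.0357), over a range of 0.00379 to 0.19. Cidea in KO mice was lower in all TN libraries than in any RT library, at 2.45, 2.77, 3.38 and 4.75 CPM and 0.683, 1.01, 1.48 and 2.02 CPM (edgeR log2 change -1.36, SE 0.63, adjusted p 0.276; 3.58% of all genes lay lower). The interaction called 0 of 10 members (0% of all genes), 1 had an unadjusted p under 0.05, and DESeq2 called 0.

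**Figure D4:**
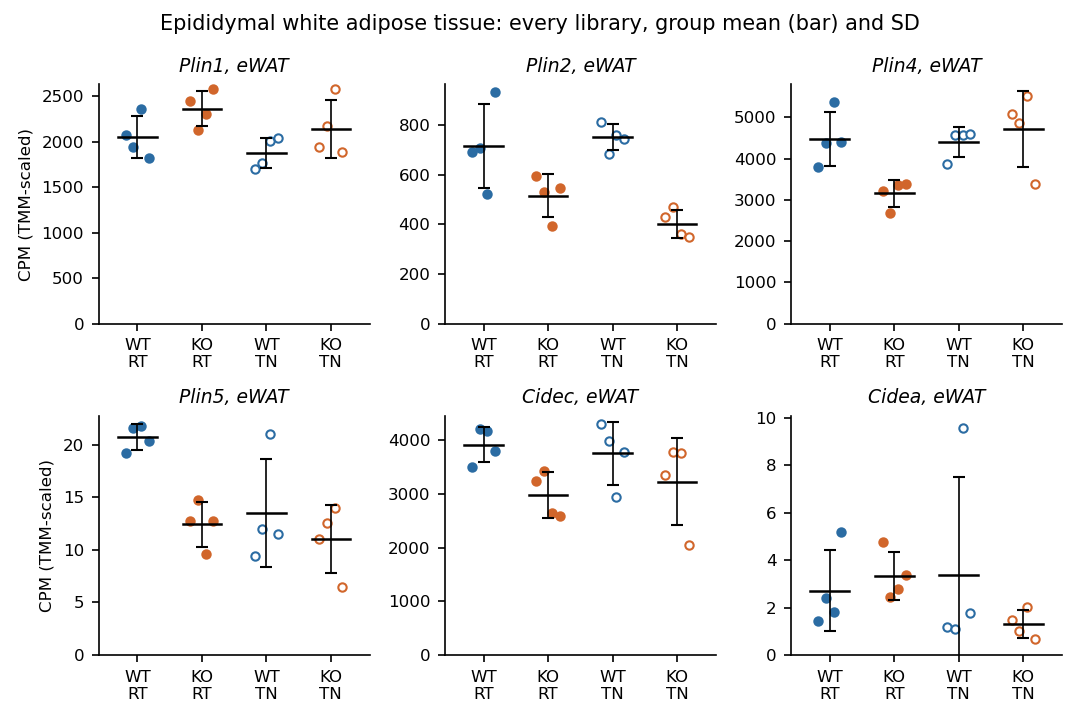
CPM of 6 members in the 16 eWAT libraries. Points are libraries (blue WT, orange KO, filled RT, open TN), bars are means and whiskers the SD of 4 libraries, cut at 0 where they would pass below the axis, and the KO libraries of Plin2 at TN lie below all WT TN libraries.

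Whether an effect differed between the tissues was tested in 1 fit over all 48 libraries, with an F test of the liver, BAT and eWAT effects against each other. For the genotype effect at RT, 1 of 10 members was called, Cidec (2.06% of all genes; adjusted p 0.0461). Its log2 changes were -2.89 in liver, -0.69 in BAT and -0.40 in eWAT from the fits by tissue. This call was lost in 36 of the 48 fits that left out a library and also with every gene kept (adjusted p 0.0751) and with the replicate block (0.374), over a range of 0.0203 to 0.374. For the genotype effect at TN, 2 of 10 members were called (0.904% of all genes). These were Fitm2 (adjusted p 0.0212), at -1.05 in liver, 0.02 in BAT and 0.19 in eWAT, and Plin4 (adjusted p 0.0298), at -1.93, -0.16 and 0.10. The Fitm2 call was lost without liver KO TN replicate 5 (adjusted p 0.0585) or WT TN replicates 6 (0.0589) or 7 (0.0564), and with the replicate block (0.132), over a range of 0.00591 to 0.132. The Plin4 call was lost with every gene kept (adjusted p 0.0584) and without eWAT KO TN replicates 3 or 5, eWAT WT TN replicate 6, liver KO TN replicates 2, 4 or 5, or liver WT TN replicates 6 or 7, over a range of 0.00453 to 0.103.

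The housing effect in WT mice differed between tissues in 4 of 10 members (15% of all genes), all perilipins. Plin3 (adjusted p 0.000659) had log2 changes of -0.99 in BAT, -0.06 in liver and 0.17 in eWAT. Plin5 (adjusted p 0.000659) had a positive sign in liver (0.71) and a negative one in BAT (-1.06) and eWAT (-0.62). Plin2 (adjusted p 0.00107) fell in BAT (-1.51), beside 0.21 in liver and 0.07 in eWAT. Plin4 (adjusted p 0.0292) was at 1.68 in liver, 0.94 in BAT and -0.03 in eWAT. Calls for Plin2, Plin3 and Plin5 held in every alternative run. That of Plin4 was lost with every gene kept (no filter, adjusted p 0.0513) and without eWAT WT RT replicate 15, eWAT WT TN replicate 6, liver WT RT replicates 12 or 18, or liver WT TN replicates 6 or 7, over a range of 0.0128 to 0.077. In KO mice the effect differed for 2 of 10 members (4.06% of all genes), Plin2 (adjusted p 0.00669) and Plin1 (adjusted p 0.0213). Plin1 was not called without liver KO RT replicate 19 (adjusted p 1), the library with 151 Plin1 counts, without liver KO TN replicate 4 (0.0538) or with the replicate block (0.649), over a range of 0.00565 to 1. The Plin2 call was lost with the replicate block (adjusted p 0.0983), over a range of 0.00012 to 0.0983.

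**Figure D5:**
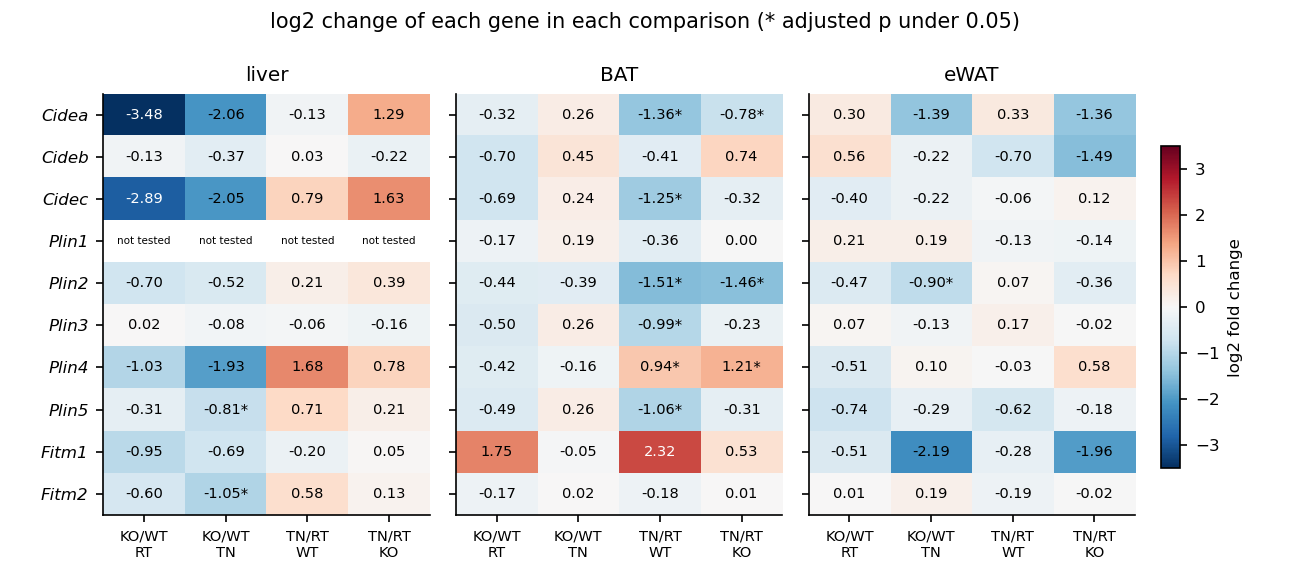
Heat map of the edgeR log2 change of each of the 10 genes (rows) in 4 comparisons of liver, BAT and eWAT (columns), with a star where the adjusted p is under 0.05. The stars are those of Plin5 and Fitm2 in liver at TN, of 6 genes in WT and 3 genes in KO BAT for housing, and of Plin2 in eWAT at TN, and Plin1 was not tested in liver.

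Within a tissue some members varied together over the 16 libraries, which share the group structure and, within a group, the library's depth and cell makeup. In BAT Cidec went with Plin5 (r 0.937, n = 16), Cidea with Plin2 (0.91) and Plin5 (0.907), and Cidea against Plin4 (-0.751). In liver Plin4 went with Fitm2 (r 0.866, n = 16), and Cidec with both Cidea (0.865) and Plin2 (0.865). The genes most like each member were taken among all genes tested in the tissue by Pearson's r of log2 CPM. For Plin2 in BAT the first was Polr1d (r 0.979), followed by Ucp1, the uncoupling protein of brown fat (0.97), and Pak1ip1 (0.968). For Plin2 in liver the first was Apoa4 (0.935), an apolipoprotein, and for Fitm2 in liver it was Pank1 (0.938), an enzyme of coenzyme A synthesis, followed by Pex11a (0.93), a peroxisomal membrane protein. Cidea in liver went most with Clstn3 (0.925), whose brown fat isoform is known as a lipid droplet protein.

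Other genes of the droplet were described from 3 lists of 15 genes of droplet formation and surface, 5 of lipolysis and 7 transcription factors of fat storage. In BAT of WT mice 8 of the 15 droplet genes were called between TN and RT, 6 lower and 2 higher, beside 32.5% of all genes. Bscl2, which encodes the budding factor seipin, fell by 1.47 on the log2 scale (adjusted p 5.08e-05), Pnpla3 by 2.28 (1.76e-05) and Dgat1, an enzyme of the last step of triglyceride synthesis, by 0.82 (0.00239). Clstn3 fell by 1.14, Pcyt1a by 0.48 and Rab18 by 0.34, while Cavin1 rose by 0.55 and Tmem159, a partner of seipin, by 0.60. In KO mice 6 of 15 were called, beside 15.2% of all genes, with Bscl2 (-1.05), Clstn3 (-0.94), Dgat1 (-0.66) and Pnpla3 (-1.69) lower and Cavin1 (0.75) and Tmem159 (0.97) higher. Of the lipolysis genes Abhd5, the coactivator that Plin1 holds, and Mgll, the monoglyceride lipase, were lower in both genotypes, 2 of 5 each. Of the 7 factors Nr1h3, Pparg and Srebf1 were lower in WT, and Nr1h3 was lower and Cebpa higher in KO. The falls of Pcyt1a, Rab18, Nr1h3 and Pparg in WT were smaller than the shift of 0.546 that plain totals give, so on that scale these genes were not lower. The fall of Srebf1 in WT (-0.5496) was about the size of that shift, so on that scale it was nearly unchanged. In WT the calls of Bscl2, Cavin1, Clstn3, Dgat1, Pnpla3 and Mgll held in all 22 alternatives run, and in KO those of Bscl2, Cavin1, Pnpla3 and Tmem159 did. Each of the others was lost in at least 1 alternative, with adjusted p up to 0.173 in WT (Rab18) and up to 0.0952 in KO (Clstn3).

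In liver the same lists had few calls for genotype. At RT Clstn3 was lower in KO (-1.20, adjusted p 0.0486), 1 of 15 droplet genes beside 0.0853% of all genes. At TN Clstn3 (-0.94, adjusted p 0.027) and Pcyt1a (-0.55, adjusted p 0.0215), a phosphatidylcholine synthesis enzyme that binds growing droplets, were lower, 2 of 15. Pparg, a factor known to drive Cidec in fat-laden liver, was lower at TN (-1.24, adjusted p 0.0476), 1 of 7, both beside 3.18% of all genes. Of the 21 alternatives run in liver, 7 kept the call of Clstn3 at RT (adjusted p up to 0.155), 16 that of Clstn3 at TN (up to 0.0863), 16 that of Pcyt1a (up to 0.0709) and 7 that of Pparg (up to 0.116). In eWAT at RT Gpat4, an enzyme of the first step of glycerolipid synthesis, was higher in KO (0.56, adjusted p 0.0115), Cavin1, a caveolar coat gene, was lower (-0.52, adjusted p 0.0299), and Ppargc1a, also among the brown adipocyte markers, was higher (1.30, adjusted p 0.023), beside 4.34% of all genes. Without WT RT replicate 18 Cavin1 (adjusted p 0.0839) and Ppargc1a (0.0673) were not called. Without the 5 eWAT libraries with hepatocyte markers none of the 3 was, with adjusted p of 0.314 for Gpat4, 0.257 for Cavin1 and 0.174 for Ppargc1a. Of 22 alternatives 21 kept the call of Gpat4, 13 that of Cavin1 and 17 that of Ppargc1a. In KO eWAT Bscl2 (-0.52, adjusted p 0.036) and Clstn3 (-1.04, adjusted p 0.0284) were lower at TN than at RT, beside 1.74% of all genes, and 14 and 15 of 22 alternatives kept these calls (adjusted p up to 0.134 and 0.121).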

How the data were processed

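Paired-end RNA sequencing libraries of liver, BAT and eWAT were used as the unnormalised counts per gene that the authors deposited, 1 file for each of 48 libraries with the same 56748 Ensembl identifiers. Per the submitters' processing notes, the tools included fastp, STAR 2.6.1d and featureCounts 1.5.0-p3, with GRCm38 (mm10) as the build. The annotation release and the strand setting are not given in the sources used here. Some identifiers are newer than GENCODE M21, so no coordinate is tied to a count. Symbols were matched through a reference gene table, which named 52073 identifiers.

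The 16 libraries of a tissue were fitted together with edgeR 4.0.16 under R 4.3.3. The fit had TMM scaling, a mean for each group, a robust quasi-likelihood F test, and only genes that filterByExpr kept at a minimum count of 10, and tissues were compared over all 48 libraries. The two-sided p-values of a comparison were adjusted across its genes with the Benjamini-Hochberg method. The 10 members were named by rule, and genes of the 3 lists when called. The members and lists were chosen with earlier results of these data known. The alternatives were scaling by RLE, every gene kept, genes with at least 1 CPM in 4 libraries, DESeq2 1.42.0, only the 8 libraries compared, each library left out, a replicate block, and plain totals for levels. Leaving out BAT libraries with muscle markers over 3000 CPM and eWAT libraries with hepatocyte markers over 1500 CPM was chosen after seeing the data. The fits within a tissue were run on simulated counts for KO against WT at TN only, and the other comparisons were not simulated.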

Additional observations from a re-analysis of the deposited data

Results flagged for a closer look

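In 14 of the 120 groups of 4 libraries (10 genes in 12 groups), 1 library stood apart from the other 3 by Dixon's ratio. For 3 of them, Plin1 in liver, the other 3 libraries were at 0, so that any count sets the ratio and no chance rate applies. For measured values chance alone sets 1 library apart in about 1 group in 20. Liver KO RT replicate 19 was the highest of its group in Cidea (4.73 CPM) and Plin1 (5.81 CPM) and the lowest in Plin5 (23.5 CPM). Liver KO TN replicate 4 was the highest in Cidea (11.1 CPM) and Fitm1 (44.3 CPM). BAT WT TN replicate 24 was the highest in Plin2 (1297 CPM) and Plin3 (68.3 CPM). Plin1 was at 0.367 CPM in liver WT RT replicate 15 and at 0.0748 CPM in liver WT TN replicate 1, with 0 in the other libraries of those groups. The other libraries that stood apart were eWAT WT TN replicate 8 in Cidea (9.57 CPM, highest), liver WT RT replicate 11 in Plin2 (877 CPM, highest), BAT KO RT replicate 14 in Plin3 (71.8 CPM, lowest), liver KO RT replicate 10 in Plin4 (6.39 CPM, lowest) and eWAT WT TN replicate 6 in Plin4 (3861 CPM, lowest).

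Between the tissues, 9 effects differed by the edgeR F test. For the genotype effect these were Cidec at RT (adjusted p 0.0461), and Plin4 (0.0298) and Fitm2 (0.0212) at TN. For the housing effect they were Plin2 (0.00107), Plin3 (0.000659), Plin4 (0.0292) and Plin5 (0.000659) in WT mice, and Plin1 (0.0213) and Plin2 (0.00669) in KO mice.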

How the results depend on the processing

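No member called in one direction took the other under an alternative run. Members called in liver KO against WT at RT numbered 0, but 1 without a filter on low counts, 3 with DESeq2 and 1 on only the 8 libraries compared, and at TN they numbered 2, but 5 with DESeq2. In eWAT, KO against WT at RT called 0 members, but 2 with DESeq2 and 1 on only the 8 libraries, KO against WT at TN called 1, but 0 on only the 8 libraries, and KO at TN against RT called 0, but 1 without a filter and 1 with DESeq2. The genotype effect differed between tissues at RT in 1 member, but in 0 without a filter, and at TN in 2, but in 1 without a filter. Leaving out 1 library at a time gave 0 to 1 members in liver at RT, 1 to 5 in liver at TN, 0 to 2 in BAT KO against WT at RT, 6 to 7 in BAT for WT housing, 2 to 3 for KO housing, 0 to 1 in eWAT for genotype at RT, for genotype at TN and for KO housing, 7 to 9 for BAT against eWAT, and, for effects that differ between tissues, 0 to 2 (genotype at RT), 0 to 3 (genotype at TN), 3 to 6 (WT housing) and 1 to 2 (KO housing). The genes called in all moved too, from 451 to between 172 (without BAT WT RT replicate 18) and 1598 (without BAT WT RT replicate 12) for the genotype effect that differs between tissues at RT, and from 198 to between 87 (without liver WT TN replicate 6) and 362 (without BAT WT TN replicate 24) at TN. The cause of these changes was not tested. RLE scaling moved the median gene by at most 0.03 on the log2 scale.

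The replicate block could be fitted only across tissues, where replicate numbers are shared. With the replicate block 0 members differed in the genotype effect at RT, 1 at TN, 4 in the WT and 0 in the KO housing effect, and 7 differed between BAT and eWAT, where the log2 difference of Cideb became 2.73. Libraries with the same number did not deviate together, with median correlations of -0.198 (BAT and eWAT, 11 pairs), 0.0263 (liver and eWAT, 11 pairs) and 0.0181 (liver and BAT, 13 pairs). A number shared by tissues has the same genotype and housing in each, and whether it marks the same animal is not given in the sources used here. Within a tissue, no paired analysis was possible because the groups share no replicate numbers.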
